A study of Capra hircus with 6 samples.

Results

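Interferon-stimulated genes and the RNA sensors that act before them were followed in a goat (Capra hircus) cell line, mGSCs-I-SB, carrying short hairpin RNAs. The members are 42 genes named by symbol, and 39 of them had a row among the 33229 rows of the deposited table. Of these, 37 carried values, out of 16599 rows with values. CXCL9 and CXCL10 had rows without values, and no row carried the symbol IFIT1, OAS2 or USP18. BST2, XAF1 and NLRC5 had values too low for the low-count filter, which left 34 members among the 12665 genes tested.

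Messenger RNA was sequenced in 6 libraries, with 2 libraries for each of 3 lines. The line shUCHL1 carried hairpin RNA against UCHL1 (labelled UCHL1 knockdown), the line shHSPA8 carried hairpin RNA against HSPA8 (labelled HSPA8 knockdown), and the line shCON carried control hairpin RNA (labelled WT). UCHL1 is a ubiquitin C-terminal hydrolase and HSPA8 is the constitutive HSP70 chaperone. The labels call the cells spermatogonial stem cells and give medium with 10% fetal bovine serum for all lines. Missing from them are the number of hairpins, their delivery, whether a line is 1 clone, and whether both libraries of a line stem from different cultures. The p-values therefore cover no more than the differences among these libraries, possibly technical ones. Every line carries a hairpin and no line without one is among the libraries, so a response to hairpin RNA that all lines share cannot be told apart from the resting state of the cells. Each line against shCON asks what went with a particular hairpin, where the effect of the hairpin's sequence and that of losing its target cannot be told apart.

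Double-stranded RNA in the cytosol is sensed by DDX58 (RIG-I) and IFIH1 (MDA5), which signal through MAVS and the kinase TBK1 to IRF3 and, where it is present, IRF7. These factors switch on type I interferon genes. Secreted interferon binds the receptor chains IFNAR1 and IFNAR2, and a complex that holds STAT2 and IRF9 then switches on the interferon-stimulated genes. Many of those genes encode proteins that block steps of viral replication, and they can also be switched on by IRF1 or IRF3 without interferon. In rodent testis, somatic cells are known to mount this response more readily than germ cells do.

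Total counts ran from 1.57e+07 to 1.64e+07 per library. Levels within a gene are CPM (a count relative to its library's total, TMM-adjusted), and levels between genes are the deposited FPKM values, which also divide by transcript length. Genes with a Benjamini-Hochberg adjusted p under 0.05 in edgeR's quasi-likelihood test over all 12665 genes are called changed, and the number marked SE after a log2 fold change is its standard error. UCHL1 had 94.3 and 97.7 CPM in shUCHL1, 386 and 334 CPM in shHSPA8, and 405 and 451 CPM in shCON. HSPA8 had 5252 and 5345 CPM in shUCHL1, 2631 and 2528 CPM in shHSPA8, and 4016 and 4112 CPM in shCON. Each targeted transcript was lowest in its own knockdown line. The libraries of a line differed by 0.0844 at the median gene in shUCHL1, by 0.16 in shHSPA8 and by 0.232 in shCON (size of the log2 difference), so shCON was the least even line. Several germ cell markers did not bear out the labelled cell type. Of 19 markers, 8 were blank, among them DAZL, ZBTB16, NANOS2 and SALL4, and DDX4 ran from 0.14 to 0.67 FPKM. Others were expressed, with ITGA6 at 11.6 to 21.9 FPKM and ID4 at 0.89 to 4.63 FPKM. Of 7 tested markers, 2 (ID4 and RET) were higher and 2 (THY1 and UCHL1) lower in shUCHL1 than in shCON. In shHSPA8, ID4 was higher and none was lower. THY1 and UCHL1 were abundant, and fibroblast transcripts such as COL1A1 reached 1324 to 1792 FPKM. Of 10 myoid and fibroblast markers, 1 was higher and 4 lower in shUCHL1 than in shCON, and 3 were higher and 1 lower in shHSPA8. Of the contractile markers, CNN1 (log2 fold change -3.88), DES (-3.85) and ACTA2 (-1.58) fell in shUCHL1. MYH11 did not pass there (0.38, edgeR adjusted p = 0.527). The matrix gene DCN rose in shUCHL1 (1.07) and in shHSPA8 (0.90). All of these results are from edgeR's test. The part of these marker changes in the interferon gene results was not tested. Leukocyte markers, which matter for interferon genes, included PTPRC at 0 to 0.04 FPKM and ITGAM at 0 in 5 of 6 libraries. AIF1, TYROBP and MS4A1 were blank, and the summed level of the leukocyte list was 175 and 190 CPM in shUCHL1, 305 and 301 CPM in shHSPA8, and 500 and 506 CPM in shCON, most of it from LCP1. Of that list's 4 tested genes, none was higher and 2 were lower in shUCHL1, while 1 (CD14) was higher and 1 (LCP1) lower in shHSPA8. The summed Sertoli cell list had 135 and 134 CPM in shUCHL1, 91.5 and 90.4 CPM in shHSPA8, and 179 and 187 CPM in shCON. Of its 4 tested genes, 2 were lower in shUCHL1 (WT1 and GATA4) and 2 in shHSPA8 (SOX9 and GATA4), and none was higher. Of 4 tested endothelial markers, all of low level, 1 was higher in shUCHL1 (VWF) and 1 in shHSPA8 (KDR), and none was lower. The part of these lists in the results was not tested.

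The members spanned a wide range of levels, and most that had values were expressed in all lines. Mean FPKM reached 1 or more for 28 of 37 members in shUCHL1, 29 in shHSPA8 and 28 in shCON. IRF3, the factor that carries the sensor signal to the nucleus, was the most abundant member in shCON, at 40.3 ± 1.72 FPKM in shUCHL1, 37.5 ± 2.98 FPKM in shHSPA8 and 36.8 ± 1.58 FPKM in shCON (SD, n = 2 libraries each, as for every FPKM mean given). IFIT5, which binds RNA ends, was next in shCON at 25.9 ± 5.54 FPKM, followed by the adaptor NMI at 21.4 ± 0.622 FPKM and the RNA-editing enzyme ADAR at 20.1 ± 0.742 FPKM. The levels of IFIT5 and NMI differed by less than the spread of IFIT5. The sensors DDX58 and IFIH1 stood at 3.29 ± 0.389 and 3.77 ± 0.0990 FPKM in shCON. At the low end of shCON were EPSTI1 (0.195 ± 0.0919 FPKM), ZBP1 (0.185 ± 0.0636), MX2 (0.12 in both libraries), RSAD2 (0.0700 ± 0.0424) and NLRC5 (0.005 ± 0.00707). IRF7, which amplifies interferon production, was also low, at 0.335 ± 0.134 FPKM in shUCHL1, 0.235 ± 0.106 FPKM in shHSPA8 and 0.425 ± 0.0636 FPKM in shCON.

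**Figure D1:**
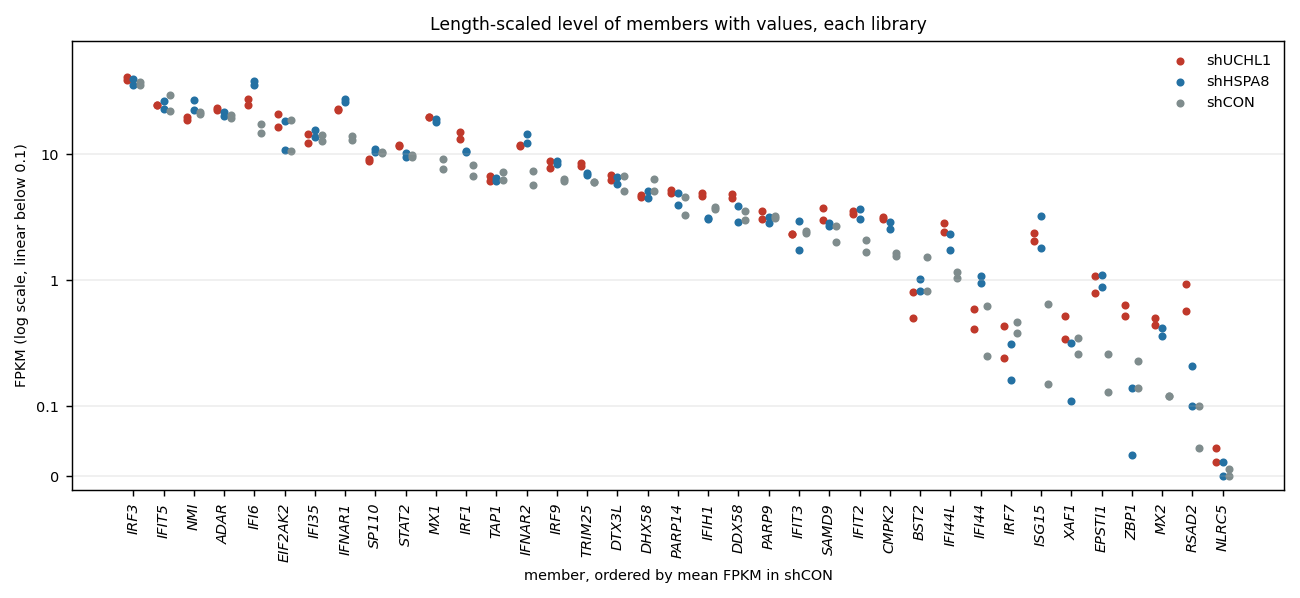
FPKM of each member with values, 1 point per library, in shUCHL1, shHSPA8 and shCON, with members ordered by their mean in shCON. The axis is logarithmic above 0.1 FPKM and linear below it. IRF3 stands at the top in shCON, and RSAD2, MX2, ZBP1 and EPSTI1 are the lowest tested members in shCON.

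Against shCON, 8 of 14 tested antiviral effectors rose in shUCHL1 and 7 in shHSPA8, while of 7 RNA sensors and regulators 1 rose in shUCHL1 and none passed in shHSPA8. In shUCHL1, 13 of 34 tested members rose and none fell, beside 8.54% of all genes tested that rose and 7.15% that fell. In shHSPA8, 10 of 34 rose and none fell, beside 8.66% and 6.02% of all genes. At an unadjusted p under 0.05 in edgeR's test, 2 members were lower in shUCHL1 and none in shHSPA8, and DESeq2 called none lower in either line. The members' median log2 fold change was 0.29 in shUCHL1, beside 0.01 over all genes tested, and 0.21 in shHSPA8, beside 0.00. Of the 34 members, 7 needed a knockdown library to pass the low-count filter: RSAD2, MX2, EPSTI1, ISG15, ZBP1, IRF7 and IFI44. For these the filter itself favours a difference. RSAD2 is counted among the effectors that rose in shUCHL1, and MX2 and EPSTI1 among those that rose in both lines. ZBP1 is counted among the sensors. The contrast of effectors with sensors therefore carries this limit. Of the 27 whose shCON libraries passed alone, 9 rose in shUCHL1 and 7 in shHSPA8. Both comparisons use the same shCON libraries, so they are not separate evidence. The members and the other gene lists were chosen with earlier results of these data known. Shares above those of all genes are therefore not independent support. In bulk samples such as these, fewer cells of a kind and less RNA per cell cannot be told apart.

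The number of calls depended on the libraries in the fit, while no member call against shCON reversed direction in any alternative run. For IFNAR1 in shUCHL1 the log2 fold change was 0.65 without shUCHL1 replicate 1 and 0.67 without replicate 2, against 0.67 with all libraries. For EPSTI1 it was 1.905 and 2.34, against 2.15. Without shUCHL1 replicate 1, only IRF1, MX1 and RSAD2 were called in shUCHL1, and without shUCHL1 replicate 2 only MX1 and RSAD2, with edgeR's adjusted p of the lost members from 0.0562 to 0.331. The count over all genes fell as well, to 528 and 530 against 1987 with all libraries, a fit in which the lone shUCHL1 library borrows its spread from the others. Without shCON replicate 1, DHX58 and SAMD9 were gained, DHX58 as lower. In shHSPA8 the count was 6 without shHSPA8 replicate 1, against 10 with all libraries. Both libraries of shUCHL1 lay above both of shCON for 21 of 34 members and below for 4, beside 29.5% and 27.0% of all genes tested. Both of shHSPA8 lay above shCON for 16 members and below for 3, beside 26.1% and 24.9%.

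**Figure D2:**
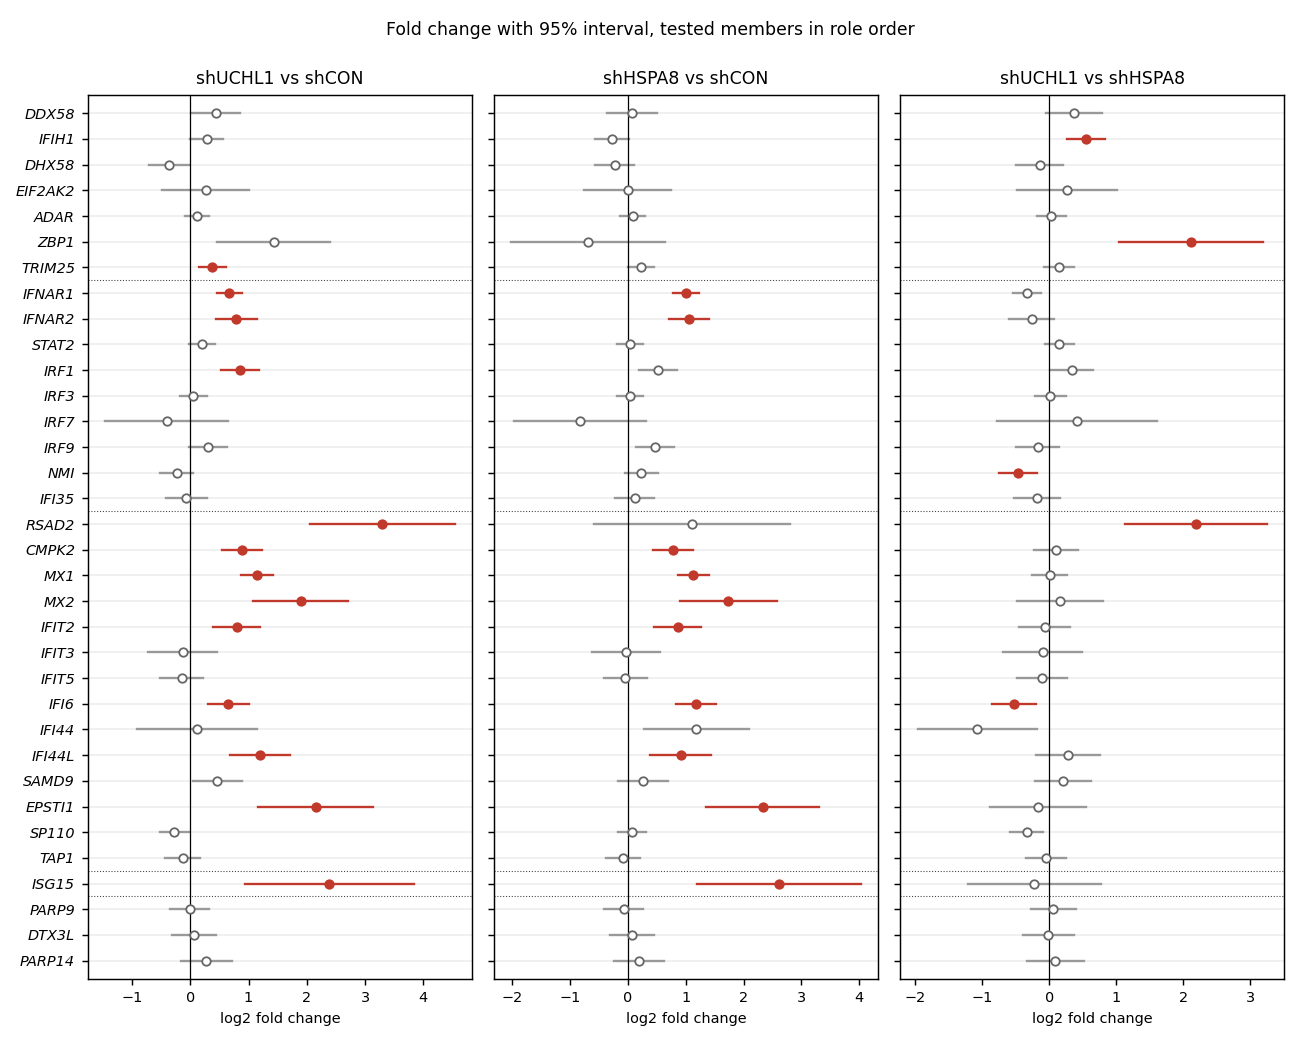
Log2 fold change (point) with its 95% interval (line) for the 34 tested members in the 3 comparisons, in role order from sensors at the top through receptors and factors, antiviral effectors and ISG15 to the PARP9 group, with dotted lines between roles. Filled red points passed the adjusted p threshold: 13 in shUCHL1 against shCON, 10 in shHSPA8 against shCON and 5 between the knockdown lines.

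Among the antiviral effectors none was lower in edgeR or DESeq2, and 1 was lower in shUCHL1 at an unadjusted p under 0.05. MX1, a dynamin-like GTPase that traps viral nucleocapsids, had 43.3 and 43.7 CPM in shUCHL1, 44.3 and 42.2 CPM in shHSPA8, and 18.0 and 21.4 CPM in shCON. All 4 knockdown libraries were about level with each other and above both shCON libraries. MX1 rose 2.21-fold in shUCHL1 (log2 fold change of 1.14, SE 0.12, edgeR adjusted p = 0.00123) and 2.20-fold in shHSPA8 (1.14, SE 0.12, edgeR adjusted p = 9.92e-04), and both calls held without each library in turn. Its neighbour MX2, the second gene of the family, was far scarcer, with 1.10 and 1.26 CPM in shUCHL1, 1.14 and 0.970 CPM in shHSPA8, and 0.317 and 0.306 CPM in shCON. MX2 rose 3.72-fold in shUCHL1 (1.90, SE 0.35) and 3.33-fold in shHSPA8 (1.74, SE 0.36), from 10 counts over both shCON libraries. The MX2 call was lost without either shUCHL1 library or shCON replicate 2 in shUCHL1, and without any 1 library in shHSPA8 (edgeR adjusted p up to 0.104 and 0.114), and DESeq2 made neither call. Some counts of MX2 carry decimal fractions (18.04 and 21.07 in shUCHL1, 17.68 in shHSPA8 replicate 1 and 4.93 in shCON replicate 1). Those of MX1 are whole numbers in every library (709 and 728 in shUCHL1, 700 and 653 in shHSPA8, 284 and 349 in shCON). Where the fractions of MX2 come from was not tested.

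RSAD2 (viperin), an enzyme that makes a chain-terminating nucleotide, had the largest fold of the members in shUCHL1. It had 45 and 28 counts in shUCHL1, 5 and 10 in shHSPA8, and 5 and 2 in shCON. Both shUCHL1 libraries stood apart from all 4 others, and the shHSPA8 and shCON libraries overlapped. RSAD2 would not have passed the low-count filter without its shUCHL1 libraries. The filter itself therefore favours a difference of shUCHL1 from shCON and from shHSPA8. The rise in shUCHL1 was 9.83-fold (log2 fold change 3.30, SE 0.53, edgeR adjusted p = 0.00744). The call held without each library in turn, though over the alternatives run its weakest pass lay just under the threshold. With 7 counts in shCON, the ratio of summed counts was 10.1, with a counting interval of 4.68 to 26.1 (exact, 95%, counting error only). In shHSPA8 RSAD2 did not pass the test (1.11, interval -0.58 to 2.80, edgeR adjusted p = 0.358). CMPK2, a mitochondrial nucleotide kinase encoded next to RSAD2, rose in both lines. It had 9.35 and 9.05 CPM in shUCHL1, 9.10 and 8.08 CPM in shHSPA8, and 5.13 and 4.84 CPM in shCON. CMPK2 rose 1.85-fold in shUCHL1 (0.88, SE 0.15) and 1.72-fold in shHSPA8 (0.79, SE 0.15), with edgeR adjusted p of 0.0082 and 0.0129. Without either shUCHL1 library the first call was lost, and without shHSPA8 replicate 1 the second (adjusted p up to 0.0895 and 0.0813).

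IFI6, a small membrane protein of mitochondria and endoplasmic reticulum, had 11.5 and 12.5 CPM in shUCHL1, 17.8 and 16.7 CPM in shHSPA8, and 6.84 and 8.39 CPM in shCON. The lines did not overlap, with shHSPA8 highest and shCON lowest. IFI6 rose 1.57-fold in shUCHL1 (log2 difference 0.65, SE 0.15, edgeR adjusted p = 0.0268) and 2.27-fold in shHSPA8 (1.18, SE 0.15, edgeR adjusted p = 0.00227). The shHSPA8 call held without each library, and the shUCHL1 call was lost without either shUCHL1 library or shCON replicate 1 (edgeR adjusted p up to 0.21). IFI44L, a GTPase-like protein that dampens the interferon response, had 5.32 and 6.24 CPM in shUCHL1, 4.05 and 5.50 CPM in shHSPA8, and 2.66 and 2.39 CPM in shCON. It rose 2.29-fold in shUCHL1 (1.19, SE 0.22) and 1.89-fold in shHSPA8 (0.92, SE 0.22). The IFI44L call was lost without either shUCHL1 library in shUCHL1, and in shHSPA8 without each library other than shHSPA8 replicate 1 (edgeR adjusted p up to 0.104 and 0.184). Its neighbour and relative IFI44 passed in neither line, with 12 and 17 counts in shUCHL1, 27 and 31 in shHSPA8, and 18 and 8 in shCON. Without shCON replicate 1, IFI44 was called higher in shHSPA8.

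Of the IFIT family, tetratricopeptide proteins that bind viral RNA, 1 of 3 tested members rose. IFIT2 had 12.1 and 12.8 CPM in shUCHL1, 11.7 and 14.4 CPM in shHSPA8, and 7.98 and 6.37 CPM in shCON, with no overlap between shCON and the knockdown lines. It rose 1.73-fold in shUCHL1 (log2 difference 0.79, SE 0.17) and 1.82-fold in shHSPA8 (0.86, SE 0.17). Its shUCHL1 call was lost without either shUCHL1 library or shCON replicate 2, and its shHSPA8 call without shHSPA8 replicate 2 (edgeR adjusted p up to 0.147 and 0.0903). IFIT3, encoded next to IFIT2, had 4.15 and 4.14 CPM in shUCHL1, 5.56 and 3.30 CPM in shHSPA8, and 4.62 and 4.47 CPM in shCON. The 95% interval of its log2 fold change was -0.72 to 0.46 in shUCHL1 and -0.62 to 0.55 in shHSPA8, so a rise as large as that of IFIT2 lies outside both. IFIT5 had 73.4 and 73.0 CPM in shUCHL1, 72.7 and 85.2 CPM in shHSPA8, and 93.8 and 68.6 CPM in shCON, and its groups overlapped. Its intervals were -0.52 to 0.22 and -0.41 to 0.33.

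The scarce effectors moved by larger folds on fewer counts. EPSTI1, named for its induction in epithelial and stromal co-culture, had 24 and 18 counts in shUCHL1, 25 and 20 in shHSPA8, and 3 and 6 in shCON. It rose 4.45-fold in shUCHL1 (log2 difference 2.15, SE 0.42) and 5.02-fold in shHSPA8 (2.33, SE 0.41). ISG15, the ubiquitin-like modifier that is coupled to proteins during an interferon response, had 13 and 15 counts in shUCHL1, 20 and 11 in shHSPA8, and 4 and 1 in shCON. Every knockdown library lay above both shCON libraries for EPSTI1 and ISG15. ISG15 rose 5.23-fold in shUCHL1 (2.39, SE 0.62) and 6.11-fold in shHSPA8 (2.61, SE 0.60). Its ratio of summed counts had an exact 95% counting interval of 2.08 to 18.1 in shUCHL1 and 2.45 to 21.0 in shHSPA8. ISG15 lost its shUCHL1 call without either shUCHL1 library or shCON replicate 2, and DESeq2 did not call it. It lost its shHSPA8 call without either shUCHL1 library, shHSPA8 replicate 1 or shCON replicate 2 (edgeR adjusted p up to 0.182 and 0.149). EPSTI1 lost its shUCHL1 call without either shUCHL1 library or shCON replicate 1, and its shHSPA8 call without shHSPA8 replicate 1 (edgeR adjusted p up to 0.122 and 0.0621).

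The other tested effectors, SAMD9, SP110 and TAP1, passed in neither line. SAMD9, an antiviral protein of the cytosol, had 23.3 and 18.9 CPM in shUCHL1, 17.6 and 19.1 CPM in shHSPA8, and 17.7 and 12.9 CPM in shCON. SP110, a nuclear body protein, had 19.6 and 20.3 CPM in shUCHL1, 25.8 and 24.7 CPM in shHSPA8, and 24.6 and 23.6 CPM in shCON, with a 95% interval of -0.52 to -0.03 in shUCHL1 (edgeR adjusted p = 0.131). TAP1, a chain of the peptide transporter of antigen presentation, had intervals of -0.43 to 0.16 in shUCHL1 and -0.38 to 0.22 in shHSPA8. BST2 (tetherin), below the filter, had 8 and 5 counts in shUCHL1, 10 and 8 in shHSPA8, and 8 and 16 in shCON. XAF1 had at most 10 counts in any library.

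**Figure D3:**
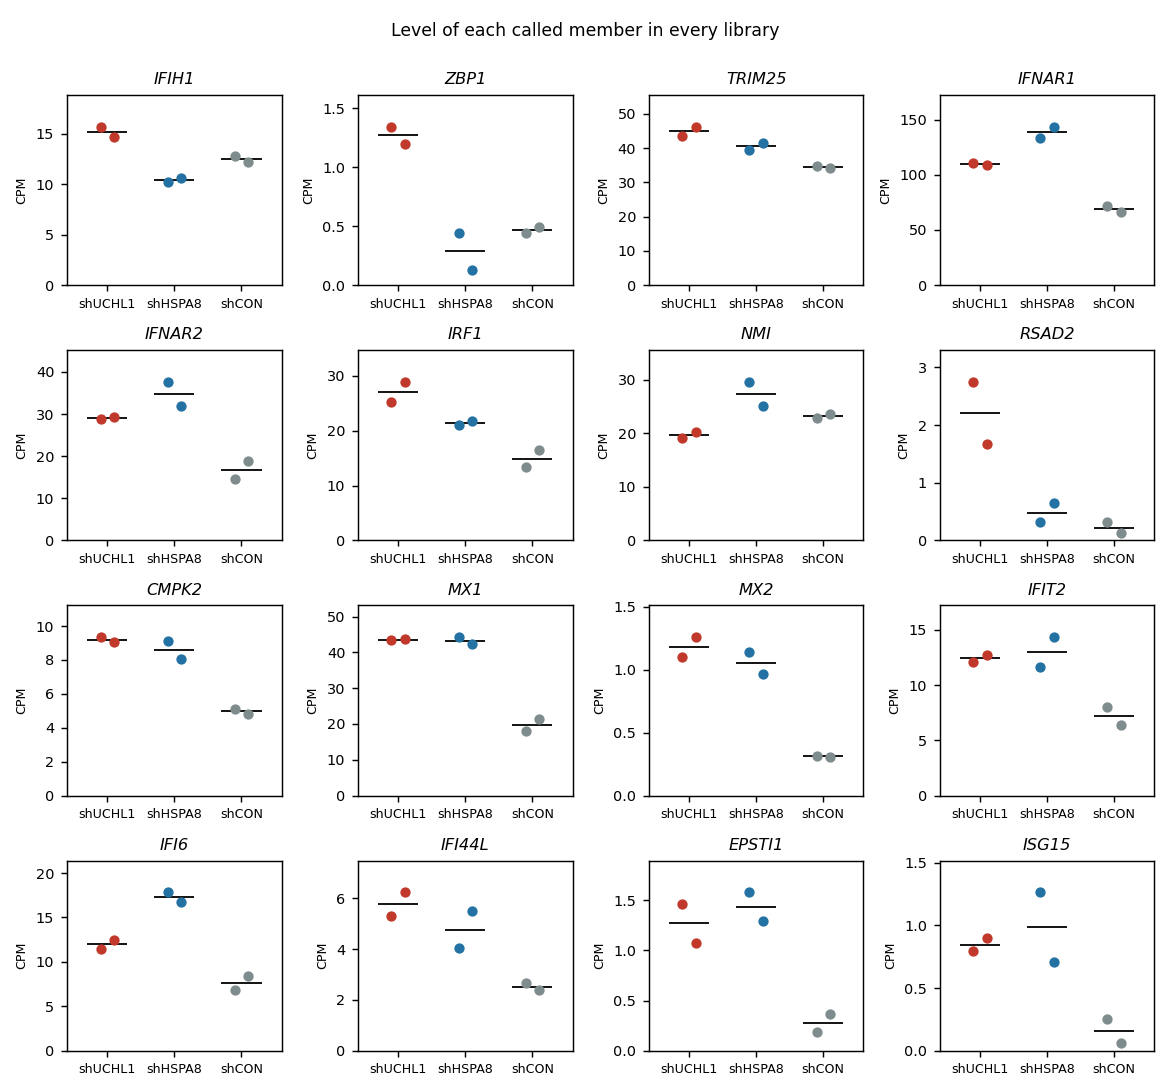
CPM in each library (points; bar, mean of the 2 libraries) for the 16 members called in at least 1 comparison, in shUCHL1, shHSPA8 and shCON, with each axis starting at 0. MX1, CMPK2 and MX2 have knockdown libraries at a like level above shCON, while RSAD2 and ZBP1 are high in the shUCHL1 libraries alone.

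Of the 7 RNA sensors and their regulators, TRIM25 alone was called against shCON, in shUCHL1; none was called in shHSPA8, where 1 was higher at an unadjusted p under 0.05, and DESeq2 called none in either line. TRIM25, the ubiquitin ligase that helps activate DDX58, had 43.6 and 46.2 CPM in shUCHL1, 39.5 and 41.4 CPM in shHSPA8, and 34.8 and 34.2 CPM in shCON. Its 1.30-fold rise in shUCHL1 (log2 fold change 0.38, SE 0.096, edgeR adjusted p = 0.0378) was lost without any 1 library (adjusted p up to 0.331). DDX58 had 12.8 and 13.7 CPM in shUCHL1, 8.66 and 11.8 CPM in shHSPA8, and 10.6 and 8.94 CPM in shCON. The shUCHL1 libraries were highest, but the difference from shCON did not pass (0.44, interval 0.02 to 0.86, edgeR adjusted p = 0.157). DHX58 (LGP2), which tunes the other sensors, had 10.8 and 10.9 CPM in shUCHL1, 12.6 and 11.3 CPM in shHSPA8, and 12.6 and 15.4 CPM in shCON. Its log2 fold change in shUCHL1 was -0.37 (interval -0.72 to -0.03, edgeR adjusted p = 0.141), and without shCON replicate 1 it was called lower.

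ADAR, which edits double-stranded RNA and so keeps the cell's own RNA from being sensed, had 127 and 131 CPM in shUCHL1, 121 and 132 CPM in shHSPA8, and 123 and 115 CPM in shCON. Its 95% interval was -0.10 to 0.33 in shUCHL1 and -0.13 to 0.30 in shHSPA8, which leaves no room for a change of 1.5-fold. EIF2AK2 (PKR), the kinase that stops translation when it binds double-stranded RNA, had 63.7 and 51.9 CPM in shUCHL1, 35.2 and 61.0 CPM in shHSPA8, and 61.2 and 34.9 CPM in shCON. Its spread within shHSPA8 and shCON was nearly as wide as its range over all libraries, and its interval ran from -0.48 to 1.01 in shUCHL1 and from -0.75 to 0.75 in shHSPA8. ZBP1, a sensor of Z-form nucleic acid that can start necroptosis, had 22 and 20 counts in shUCHL1, 7 and 2 in shHSPA8, and 7 and 8 in shCON. Against shCON it did not pass in shUCHL1 (log2 fold change 1.43, interval 0.46 to 2.40, edgeR adjusted p = 0.0578). It was called there when libraries were scaled by size alone, after the length correction, in the fit of these 4 libraries alone, and without either shHSPA8 library.

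The libraries of a line also differed with transcript length. Over all genes, long transcripts were relatively lower in shHSPA8 replicate 1 than in replicate 2, and relatively higher in shCON replicate 1 than in replicate 2. Across the 12665 genes, the log2 difference between replicate 1 and replicate 2 correlated with log2 transcript length at 0.151 in shUCHL1, -0.354 in shHSPA8 and 0.395 in shCON (genes of the same libraries, not independent replicates). EIF2AK2, with a transcript of 3.21 kb, differed by 0.29 in shUCHL1, -0.79 in shHSPA8 and 0.81 in shCON. Other members differed to unlike degrees. PARP14 (5.64 kb) differed by -0.32 in shHSPA8 and 0.48 in shCON. TRIM25 (5.60 kb) differed by -0.07 in shHSPA8 and 0.02 in shCON, and ADAR (5.86 kb) by -0.12 in shHSPA8 and 0.09 in shCON. Of members close to EIF2AK2 in length, IFIH1 (3.28 kb) differed by -0.06 in shHSPA8 and 0.06 in shCON. In the same order, PARP9 (2.99 kb) differed by -0.16 and 0.06, and CMPK2 (3.06 kb) by 0.17 and 0.08. IFIT5 (3.10 kb) differed by -0.23 and 0.45, and DDX58 (2.94 kb) by -0.445 and 0.25. RSAD2 (3.05 kb), on low counts, differed by -0.81 and 0.84. Whether length bears on the EIF2AK2 spread was not tested. After a length trend was removed from each library, 13 members were called in shUCHL1 and 12 in shHSPA8. Of these, 12 and 10 were also called without that step. TRIM25 was lost and ZBP1 gained in shUCHL1, and IRF1 and IRF9 were gained in shHSPA8.

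**Figure D4:**
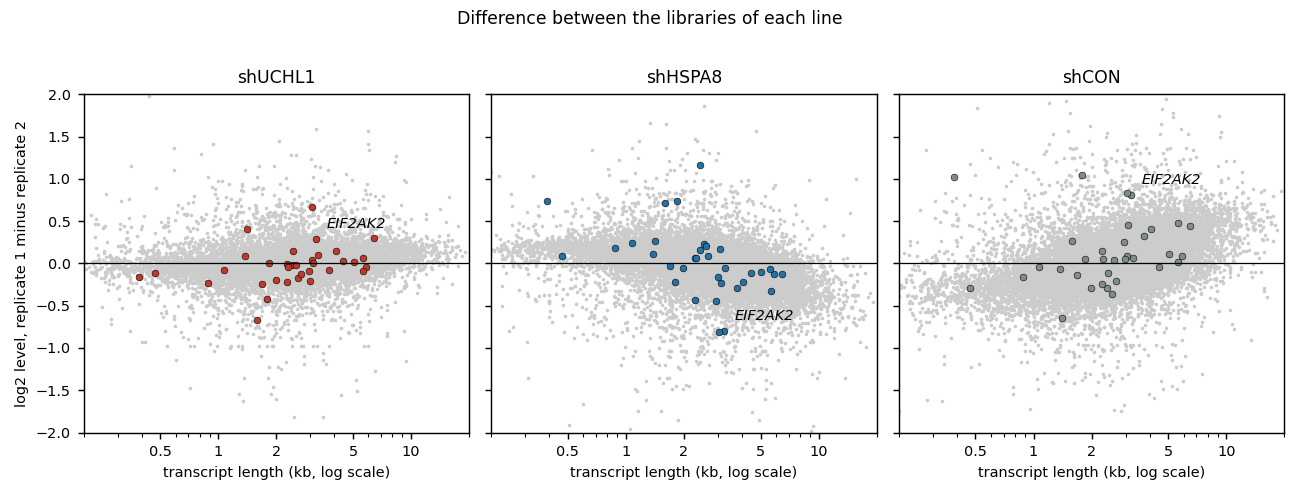
Log2 level in replicate 1 minus replicate 2 against transcript length (kb, log axis), in shUCHL1, shHSPA8 and shCON. Grey points are the tested genes within the axes, which stop at 2 log2 units and 20 kb, and coloured points are the tested members; the cloud tilts downward with length in shHSPA8 and upward in shCON, and EIF2AK2 lies at -0.79 in shHSPA8 and 0.81 in shCON.

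Both chains of the type I interferon receptor rose in both knockdown lines. IFNAR1 had 110 and 109 CPM in shUCHL1, 133 and 144 CPM in shHSPA8, and 71.4 and 66.2 CPM in shCON. IFNAR2 had 28.7 and 29.2 CPM in shUCHL1, 37.6 and 32.0 CPM in shHSPA8, and 14.6 and 18.8 CPM in shCON. For both chains shHSPA8 was highest, shUCHL1 intermediate and shCON lowest, without overlap. Between the knockdown lines IFNAR2 did not pass the test (shUCHL1 against shHSPA8 -0.27, interval -0.61 to 0.08, edgeR adjusted p = 0.263). Over all genes tested, both shUCHL1 libraries lay above both of shHSPA8 for 33.9% and below for 31.8%. IFNAR1 rose 1.59-fold in shUCHL1 (log2 difference 0.67, SE 0.092, edgeR adjusted p = 0.004) and 2.01-fold in shHSPA8 (1.01, SE 0.092, edgeR adjusted p = 6.21e-04). IFNAR2 rose 1.73-fold in shUCHL1 (0.79, SE 0.15, edgeR adjusted p = 0.014) and 2.08-fold in shHSPA8 (1.06, SE 0.15, edgeR adjusted p = 0.00409). The shHSPA8 calls of both held without each library, and the shUCHL1 calls were lost without either shUCHL1 library (edgeR adjusted p up to 0.11). In the RefSeq goat annotation (ARS1.2), these genes stand in a row with the receptor genes IFNGR2 and IL10RB, in the order IFNGR2, IFNAR1, IL10RB, IFNAR2. IL10RB, a chain shared by receptors of interleukin-10 and type III interferon, had 29.0 and 30.1 CPM in shUCHL1, 38.0 and 39.2 CPM in shHSPA8, and 21.0 and 24.0 CPM in shCON. It rose in shHSPA8 (0.78, SE 0.11, edgeR adjusted p = 0.00404) and did not pass in shUCHL1 (0.39, edgeR adjusted p = 0.0548). IFNGR2, a chain of the type II receptor, rose in shHSPA8 (0.38, edgeR adjusted p = 0.0247, lost without 5 of the 6 libraries in turn) and did not pass in shUCHL1 (0.18, edgeR adjusted p = 0.21).

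Among the transcription factors, IRF1 was called in shUCHL1 and lay just past the threshold in shHSPA8. IRF1, which can switch on antiviral genes without interferon, had 25.2 and 28.9 CPM in shUCHL1, 21.0 and 21.8 CPM in shHSPA8, and 13.4 and 16.4 CPM in shCON. It rose 1.81-fold in shUCHL1 (log2 difference 0.86, SE 0.14, edgeR adjusted p = 0.00793), a call lost without shUCHL1 replicate 2 (adjusted p = 0.0933). In shHSPA8 its log2 fold change was 0.52 (interval 0.19 to 0.85, edgeR adjusted p = 0.0505), and it was called there without shCON replicate 2. IRF9, the DNA-binding part of the interferon-activated complex, had 12.2 and 14.5 CPM in shUCHL1, 14.9 and 15.1 CPM in shHSPA8, and 10.3 and 11.3 CPM in shCON, and passed in neither line (edgeR adjusted p = 0.204 and 0.0645). STAT2, its partner, had 50.6 and 49.8 CPM in shUCHL1, 43.4 and 46.9 CPM in shHSPA8, and 43.1 and 44.5 CPM in shCON, with intervals of -0.03 to 0.42 and -0.18 to 0.27. IRF3 had intervals of -0.17 to 0.28 in shUCHL1 and -0.19 to 0.26 in shHSPA8. A change of 1.5-fold in STAT2 or IRF3 lies outside these intervals. IRF7 had 4 to 12 counts per library, and such a change lies inside its intervals (-1.46 to 0.65 and -1.96 to 0.31). IFI35, which binds NMI, had intervals of -0.41 to 0.28 and -0.23 to 0.46. NLRC5, the activator of class I antigen presentation genes, had at most 4 counts in any library.

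PARP9, DTX3L and PARP14 stand side by side in the annotation, and PARP9 and DTX3L overlap there. PARP9 and DTX3L form a complex that modifies histones and viral proteins, and PARP14 is an ADP-ribosyltransferase. None was called in any comparison by edgeR or DESeq2, and none had an unadjusted p under 0.05. DTX3L had 27.0 and 24.3 CPM in shUCHL1, 24.0 and 27.9 CPM in shHSPA8, and 28.1 and 21.1 CPM in shCON. The groups of PARP9 and DTX3L overlapped in every comparison. The 95% interval of PARP9 was -0.34 to 0.33 in shUCHL1 and -0.41 to 0.27 in shHSPA8, so a rise as large as that of MX1 lies outside it. The strand setting of the counts is not given in the sources used here, so reads of the overlapping stretch may have been counted for either gene.

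The knockdown lines were also compared with each other, which is the test of whether the members differ between them. Of the 34 tested members, 3 were higher and 2 lower in shUCHL1 than in shHSPA8, beside 6.20% and 8.35% of all genes tested. The total of 5 of 34 is close to the 14.6% of all genes called in either direction. RSAD2, with the counts given above, was higher by 4.55-fold in the shUCHL1 line (log2 fold change against shHSPA8 2.19, SE 0.45, edgeR adjusted p = 0.0213). ZBP1 was 4.33-fold higher (2.12, SE 0.46, edgeR adjusted p = 0.025), on 42 against 9 summed counts. Neither RSAD2 nor ZBP1 would have passed the low-count filter without its shUCHL1 libraries, so the filter itself favours these differences. IFIH1 had 15.7 and 14.7 CPM in shUCHL1 and 10.2 and 10.6 CPM in shHSPA8, with shCON between them at 12.8 and 12.2 CPM, and was 1.46-fold higher in shUCHL1 (0.55, SE 0.12, edgeR adjusted p = 0.0267). Neither line differed from shCON in IFIH1 by the test (log2 fold change 0.28 and -0.27, edgeR adjusted p = 0.171 and 0.2). IFI6 was 1.44-fold lower in shUCHL1 than in shHSPA8 (-0.53, SE 0.14, edgeR adjusted p = 0.0463).

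NMI, which interacts with STAT proteins, had 19.2 and 20.3 CPM in shUCHL1 and 29.6 and 25.0 CPM in shHSPA8, with shCON between them at 22.9 and 23.6 CPM. It was lower by 1.38-fold in the shUCHL1 line (log2 fold change -0.47, SE 0.12, edgeR adjusted p = 0.0444). Of the 5 members that differed between the knockdown lines, none was called without shUCHL1 replicate 1, shUCHL1 replicate 2 or shHSPA8 replicate 2, and ZBP1 alone without shHSPA8 replicate 1 (edgeR adjusted p of the lost calls from 0.05 to 0.323). DESeq2 called RSAD2 alone. With library size scaling alone, 3 members were higher and none lower, with IFI6 and NMI lost (edgeR adjusted p = 0.0852 and 0.0882). For MX1 the 95% interval of the difference between the lines was -0.25 to 0.27, for CMPK2 -0.23 to 0.42, for IFIT2 -0.45 to 0.31 and for ISG15 -1.21 to 0.76. IRF1 (0.34, edgeR adjusted p = 0.141) and TRIM25 (0.15, edgeR adjusted p = 0.334), called against shCON in shUCHL1 and not in shHSPA8, did not pass this test between the knockdown lines. IFNAR1 was just past the threshold (-0.34, edgeR adjusted p = 0.0507). It was called lower in shUCHL1 with RLE size factors, after the length correction, in the fit of the 4 libraries alone and without either shCON library.

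Other genes of the pathway, from a list of 113, were called about as often as all genes tested. Of these, 84 had a row, 78 carried values and 66 were tested. In shUCHL1 4 rose and 7 fell, in shHSPA8 8 rose and 4 fell, and between the lines 3 were higher and 5 lower in shUCHL1. Over all genes tested, 15.7%, 14.7% and 14.6% were called in these comparisons, so the counts of 11, 12 and 8 of 66 lie near that background. Their median log2 fold change was 0.04 in shUCHL1, beside 0.01 over all genes tested, and 0.00 in shHSPA8, beside 0.00. With library size scaling alone the split was 6 and 5 in shUCHL1, and 8 and 4 between the lines. When shUCHL1 replicate 1 was left out the count in shUCHL1 was 0, and when replicate 2 was left out it was 1. In shHSPA8 it was 6 without either shUCHL1 library or shHSPA8 replicate 2, and 7 without shHSPA8 replicate 1. Between the lines it was 0, 1, 2 and 5 without shUCHL1 replicate 1, shUCHL1 replicate 2, shHSPA8 replicate 1 and shHSPA8 replicate 2, and 17 without either shCON library. Of 7 interferon genes in the list, IFNE alone carried values, with at most 4 counts in any library, IFNG and IFNK were blank, and no row carried the symbol IFNB1, IFNA1, IFNW1 or IFNL3. Interferon transcripts were therefore not analysed here.

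Of these other genes, HERC6, an interferon-stimulated gene of the HERC ubiquitin ligase family, rose in both lines. It had 39.5 and 41.8 CPM in shUCHL1, 39.5 and 46.7 CPM in shHSPA8, and 24.5 and 21.4 CPM in shCON. HERC6 rose in shUCHL1 (log2 fold change 0.83, SE 0.13, edgeR adjusted p = 0.00643, lost without either shUCHL1 library) and in shHSPA8 (0.91, SE 0.13, edgeR adjusted p = 0.00387). The neighbouring HERC5 did not pass in either line (0.06 and 0.14). IFNGR1, a chain of the type II interferon receptor, rose in shUCHL1 (0.77, SE 0.13), as did IRF5 (0.67, SE 0.17), a factor of Toll-like receptor signalling, and TICAM1 (0.49, SE 0.13), the adaptor of TLR3. All of these shUCHL1 calls were lost without either shUCHL1 library, and those of IRF5 and TICAM1 also without either shHSPA8 library or shCON replicate 1 (edgeR adjusted p up to 0.295).

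In shHSPA8, the chemokine CCL5 had 18 and 13 counts, against 1 and 0 in shCON, with 2 and 2 in shUCHL1. The ratio of summed counts between shHSPA8 and shCON was 31.8 (exact 95% counting interval 5.31 to 1300), with an edgeR adjusted p of 0.00525. CCL5 passed the low-count filter only through its shHSPA8 libraries. The filter itself therefore favours a difference of shHSPA8 from shCON and from shUCHL1. IKBKE, a kinase that acts with TBK1 on the interferon regulatory factors, had 174 and 184 counts in shUCHL1, 416 and 338 in shHSPA8, and 160 and 185 in shCON. It rose 2.24-fold in shHSPA8 (log2 fold change 1.17, SE 0.14, edgeR adjusted p = 0.00205). SOCS3, a feedback inhibitor of cytokine signalling, had 27.9 and 29.8 CPM in shUCHL1, 50.3 and 43.8 CPM in shHSPA8, and 24.1 and 30.3 CPM in shCON, and rose in shHSPA8 (0.79, SE 0.14, lost without shHSPA8 replicate 1). TYK2, a kinase bound to IFNAR1, rose there as well (0.46, SE 0.089, edgeR adjusted p = 0.0141, lost without either shUCHL1 library or shHSPA8 replicate 2). Between the knockdown lines CCL5 (-2.95, SE 0.54), IKBKE (-1.15, SE 0.14), SOCS3 (-0.71, SE 0.14) and PSME1 (-0.57, SE 0.10) were lower in shUCHL1 than in shHSPA8, and IRF5 (1.38, SE 0.19), PARP12 (0.75, SE 0.18) and MB21D1 (0.46, SE 0.12), the DNA sensor cGAS, were higher. Each of these 7 calls was lost without shUCHL1 replicate 1, and all but that of IKBKE without shUCHL1 replicate 2. Those of PARP12 and MB21D1 were also lost without either shHSPA8 library, and those of CCL5, SOCS3 and PSME1 without shHSPA8 replicate 1.

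Genes of antigen presentation were lower where they passed the test. Of 9 tested, 3 fell in shUCHL1 and 2 in shHSPA8, beside 7.15% and 6.02% of all genes tested, and none rose in edgeR, in DESeq2 or at an unadjusted p under 0.05. DESeq2 called 3 lower in shUCHL1 and none in shHSPA8, where edgeR found 3 lower at an unadjusted p under 0.05. PSMB8, a subunit of the immunoproteasome, had 12.4 and 15.7 CPM in shUCHL1, 21.4 and 18.0 CPM in shHSPA8, and 25.2 and 32.4 CPM in shCON. It fell 2.05-fold in shUCHL1 (log2 fold change -1.04, SE 0.18, edgeR adjusted p = 0.00983), a call lost without shUCHL1 replicate 1. TAP2, the partner chain of TAP1, had 35.7 and 35.8 CPM in shUCHL1, 38.4 and 39.4 CPM in shHSPA8, and 48.9 and 54.1 CPM in shCON. It fell in shUCHL1 (-0.53, SE 0.098) and in shHSPA8 (-0.40, SE 0.098). PSME1, a proteasome activator subunit, fell in shUCHL1 (-0.52, SE 0.10), and PSMB9, another immunoproteasome subunit, in shHSPA8 (-1.28, SE 0.29). PSMB9, TAP1, PSMB8 and TAP2 are neighbours in the annotation, and TAP1 between them did not pass. The TAP2 and PSME1 calls in shUCHL1 were lost without either shUCHL1 library. In shHSPA8, TAP2 was lost without each library other than shCON replicate 1, and PSMB9 without either shUCHL1 library, shHSPA8 replicate 2 or shCON replicate 2 (edgeR adjusted p up to 0.17).

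Of 27 other effectors tested, 1 rose and 2 fell in shUCHL1, and 2 rose and 2 fell in shHSPA8, which is near the share of all genes that did. PARP12, an antiviral ADP-ribosyltransferase, had 4.58 and 4.68 CPM in shUCHL1, 2.53 and 2.97 CPM in shHSPA8, and 8.80 and 8.14 CPM in shCON. It fell 1.83-fold in shUCHL1 (log2 fold change -0.87, SE 0.15, lost without either shUCHL1 library) and 3.07-fold in shHSPA8 (-1.62, SE 0.17, edgeR adjusted p = 0.00102). SP140, encoded next to SP110, fell in shUCHL1 (-0.52, SE 0.095, lost without either shUCHL1 library), and TRIM14, a mitochondrial adaptor of RNA sensing, fell in shHSPA8 (-0.50, SE 0.099, lost without any shUCHL1 or shHSPA8 library). From the list of sensors and adaptors, TMEM173 (STING), the adaptor of cytosolic DNA sensing, had 2.44 and 2.46 CPM in shUCHL1, 4.62 and 3.17 CPM in shHSPA8, and 4.31 and 5.08 CPM in shCON. It fell in shUCHL1 (-0.94, SE 0.23, edgeR adjusted p = 0.0371, lost without either shUCHL1 library or shCON replicate 2).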

How the data were processed

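SMARTER mRNA-seq libraries were made from column-purified total RNA (1.3 ug), per the labels' protocols. Reads were trimmed with Trimmomatic 0.36, per the submitters' processing notes; aligner, counter, build and strand setting: not given in the sources used here. The authors deposited FPKM values and expected counts per gene and library (1014 to 1117 genes per library are fractional). The expected counts were rounded before testing. The deposited mean counts, log2 ratios and p-values of the authors were not used. RefSeq ARS1.2 gave neighbours only, and matched the IDs of all 16599 rows with values.

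Tests used edgeR 4.0.16 in R 4.3.3: filterByExpr (10 counts, 0.622 CPM), TMM scaling (factors 0.966 to 1.04), group as the only term over all 6 libraries, and Benjamini-Hochberg adjustment over 12665 genes at 0.05. An SE is the fold change divided by the square root of F. DESeq2 1.42.0 was an alternative. On simulated shUCHL1 against shCON counts for 12665 genes, calls were made for 16 of 67 genes set to a 1.5-fold change, 54 of 67 set to 2-fold, 63 of 66 set to 4-fold and 13 of 12465 left alone. Exact counting intervals cover counting error only. Members and lists were chosen with earlier results of these data known. All members are accounted for, those called get the value of every library, and other pathway genes are named by largest fold among calls, up to 6 per direction against shCON and 4 between the knockdown lines. HERC5 and IFNGR2 were added after their values were seen. A planned search of promoters was not made.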

Additional observations from a re-analysis of the deposited data

Results flagged for a closer look

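In the test between the knockdown lines 5 of 34 members passed, a share close to the 14.6% of all genes tested, and all 5 calls were lost without either shUCHL1 library. Against shCON, IFIH1, NMI and ZBP1 passed in neither line, RSAD2 passed in shUCHL1 and IFI6 in both. RSAD2 (log2 difference 2.19, shUCHL1 minus shHSPA8) and ZBP1 (2.12) were higher in shUCHL1, both on low counts. Neither would have passed the low-count filter without its shUCHL1 libraries, so the filter itself favours these differences. IFIH1 (0.55) was also higher in shUCHL1. NMI (-0.47) and IFI6 (-0.53) were lower in shUCHL1 than in shHSPA8, though both were lost when libraries were scaled by size alone.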

How the results depend on the processing

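Counted as pairs of a member call and an alternative, most pairs held and none reversed. Of these pairs, 140 of 181 held in shUCHL1 against shCON, 116 of 139 in shHSPA8 against shCON and 41 of 70 between the knockdown lines. MX1 and RSAD2 held under all alternatives run in shUCHL1, IFI6, IFNAR1, IFNAR2 and MX1 in shHSPA8, and none between the lines. The weakest pass of RSAD2 in shUCHL1 lay just under the threshold. In shUCHL1 against shCON, leaving out each library in turn gave 528 to 2615 genes (1987 with all), 2 to 13 members (13 with all) and 0 to 13 other pathway genes (11 with all). In shHSPA8 against shCON it gave 920 to 2416 genes (1859), 6 to 9 members (10) and 6 to 14 other pathway genes (12). Between the lines it gave 257 to 3083 genes (1843), 0 to 8 members (5) and 0 to 17 other pathway genes (8).

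With the replicate number as a block, 1230 genes and 7 other pathway genes were called in shUCHL1, 1131 and 6 in shHSPA8, and 923 and 5 between the lines, with 9, 9 and 2 members. The replicate numbers did not pair the libraries: deviations of same-numbered libraries correlated at -0.225 for shUCHL1 with shHSPA8, 0.234 for shUCHL1 with shCON and -0.537 for shHSPA8 with shCON. Removing a length trend gave 17 other pathway genes in shUCHL1 and 2895 genes between the lines. Fitting only the 4 libraries of a comparison gave 1104 genes and 6 other pathway genes in shHSPA8, and 3116 genes, 8 members and 17 other pathway genes between the lines. Between the lines, DESeq2 called 1 member and 5 other pathway genes, and scaling by library size alone 3 members. That scaling moved the median log2 fold change over all genes between the lines to 0.12, against 0.02 with TMM, and the share of higher genes among calls to 64.4%, against 42.6%. In shUCHL1 against shCON the share was 68.1%, against 54.5%. The causes were not tested. Low counts limit RSAD2, ISG15, MX2, EPSTI1 and ZBP1, each with 15 or fewer summed counts in shCON.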
